A study of Homo sapiens with 9 samples.

Results

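MYC was knocked down in CA46 cells given PBS, the vehicle. Their messenger RNA was compared, over every named gene that could be measured, with that of cells given a control virus and the same vehicle. CA46 is an established human B cell line from a Burkitt lymphoma, a tumour in which a chromosome translocation puts MYC under the control of an immunoglobulin locus. In the knockdown group (shMyc) the cells carried a virus with an shRNA against Myc for 48 h, and in the control group (NTC) a virus with a non-targeting shRNA for the same time. Cells of both groups were given PBS as vehicle for the last 20 h, and "in PBS" below stands for that treatment. Each group is 1 RNA-seq library, picked by its treatment label, so the comparison rests on 2 of the 4 RNA-seq libraries and on 2 of the 9 samples in the series. The other 2 RNA-seq libraries carry the same pair of viruses in cells given 10 mM dimethyl succinate (DMS, an ester of succinate that crosses membranes), and are set beside the PBS pair where they bear on it. All 4 libraries come from virus-infected cells, and no uninfected cells were analysed here. The labels do not say how many hairpins were used or whether infected cells were pooled.

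MYC encodes a transcription factor that pairs with MAX and binds E-box sequences, above all CACGTG, close to gene starts. It is known for raising genes of ribosome assembly, nucleotide synthesis, metabolism and cell division, and in Burkitt lymphoma its level is far above that of a resting B cell. Loss of MYC in B cells is also known to go with higher levels of interferon-stimulated and antigen-presentation genes. The comparison asks what the gene programme of these cells looks like once MYC is depleted.

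Levels are FPKM, which count fragments relative to gene length and library depth, rescaled here so that the bulk of genes has the same level in all 4 libraries. Ratios are log2(FPKM + 1) in shMyc minus the same in NTC, which understates the change of genes with low values. A 2-fold difference, a ratio of 1 or more in either direction, counted as higher or lower. Each group is 1 library without a replicate, so no p-value is given and every count below describes these 2 libraries. FPKM measures a share of the messenger RNA pool, so a fall or rise of the whole pool would not be seen. In bulk RNA, fewer cells of a kind and less RNA per cell cannot be told apart.

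The 2 libraries held most markers of a B cell line, though BCL6 and MME were low. CD79A stood at 2547 FPKM in shMyc and 1065 FPKM in NTC, MS4A1, which encodes CD20, at 941 FPKM in shMyc and 247 FPKM in NTC, and PAX5, the B lineage master factor, at 125 FPKM in shMyc and 55.4 FPKM in NTC. BCL6, the germinal centre repressor, was at 0.345 FPKM in shMyc and 0.160 FPKM in NTC, and MME, which encodes CD10, at 2.98 FPKM in shMyc and 1.32 FPKM in NTC. Of 20 myeloid markers 7 passed the filter on low values, with a summed level of 437 FPKM in shMyc and 281 FPKM in NTC, while MPO, S100A8, S100A9, ELANE and CD163 were listed at 0 in both. Of 20 T and NK cell markers 7 passed, with summed levels of 45.0 FPKM in shMyc and 35.1 FPKM in NTC, and CD8A, CD8B, CD28 and GNLY were listed at 0 in both. None of 11 erythroid markers passed. Of 10 epithelial and packaging cell markers 3 passed, with summed levels of 1023 FPKM in shMyc and 719 FPKM in NTC, nearly all from the cytoskeletal genes VIM (998 FPKM in shMyc, 439 FPKM in NTC) and TUBB3 (24.3 FPKM in shMyc, 275 FPKM in NTC). EPCAM, an epithelial surface protein, had 0.807 FPKM in shMyc and 4.80 FPKM in NTC, and the keratins KRT8 and KRT18 were listed at 0 in both libraries.

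MYC, the target of the shRNA, had 17.0 FPKM in shMyc cells and 1868 FPKM in NTC cells in PBS. The knockdown library thus held 0.912% of the control level. In DMS it had 625 FPKM in shMyc cells and 1651 FPKM in NTC cells, or 37.9% of the control, so the pair in PBS was the one with the deeper depletion. MYC lies on chromosome 8.

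Of 11192 genes that passed a mean of 1 FPKM over the 4 libraries, 1614 (14.4%) were at least 2-fold higher in shMyc cells in PBS and 1901 (17%) at least 2-fold lower. These shares are the background for every count of list members below, and a count near them sets no list apart. The middle of the distribution was centred on the control, with an interquartile range of -0.68 to 0.62. The lower side reached further. At least 8-fold differences numbered 6 genes higher and 78 lower, and at least 4-fold differences 247 higher and 416 lower. The larger side depended on the scaling: upper quartile scaling gave 1972 higher and 1578 lower genes, and values as deposited gave 1360 higher and 2227 lower. The counts shrank to 901 higher and 1257 lower with a pseudocount of 5 in place of 1. Left as deposited, the values shifted the median ratio by -0.12, and upper quartile scaling shifted it by 0.13.

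The 15 genes with the lowest ratios among those with a mean of at least 5 FPKM in the pair had levels of 0 to 25.1 FPKM in shMyc cells, at most 5.38% of their level in NTC cells. Besides MYC itself, SNHG9, a host of small nucleolar RNAs, was listed at 0 in shMyc cells and at 108 FPKM in NTC cells, and GAL, which encodes the neuropeptide galanin, was listed at 0 in shMyc cells and at 57.9 FPKM in NTC cells. Metabolic enzymes were prominent. ASS1, argininosuccinate synthase, had 0.557 FPKM in shMyc and 79.0 FPKM in NTC. CBS, the entry enzyme of transsulfuration, had 0.0798 FPKM in shMyc and 28.8 FPKM in NTC. FABP5, a fatty acid carrier, had 25.1 FPKM in shMyc and 466 FPKM in NTC. The rest of the 15 were HPDL, NPW, GALNT18, KISS1R, DDN, CTXN1, RAC3, SLC38A5, a transporter of glutamine, and IGLL1, the surrogate light chain of immature B cells.

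At the top of the ranking, 8 of the 15 genes are on the lists of interferon-stimulated effectors or nucleic acid sensors, and the folds were smaller than those on the lower side. IFI27 had 182 FPKM in shMyc and 15.8 FPKM in NTC, EPSTI1 168 FPKM in shMyc and 18.5 FPKM in NTC, and LGALS3BP 210 FPKM in shMyc and 23.9 FPKM in NTC. IFI6, a mitochondrial survival factor induced by interferon, had 948 FPKM in shMyc and 117 FPKM in NTC. LTB, the membrane anchor of lymphotoxin, had 1369 FPKM in shMyc and 170 FPKM in NTC. ITGAM, an integrin chain of myeloid and some B cells, MS4A7 and INPP1, an inositol phosphatase, were among the others. The log2 ratios of these 15 genes ran from 2.88 to 3.44.

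**Figure D1:**
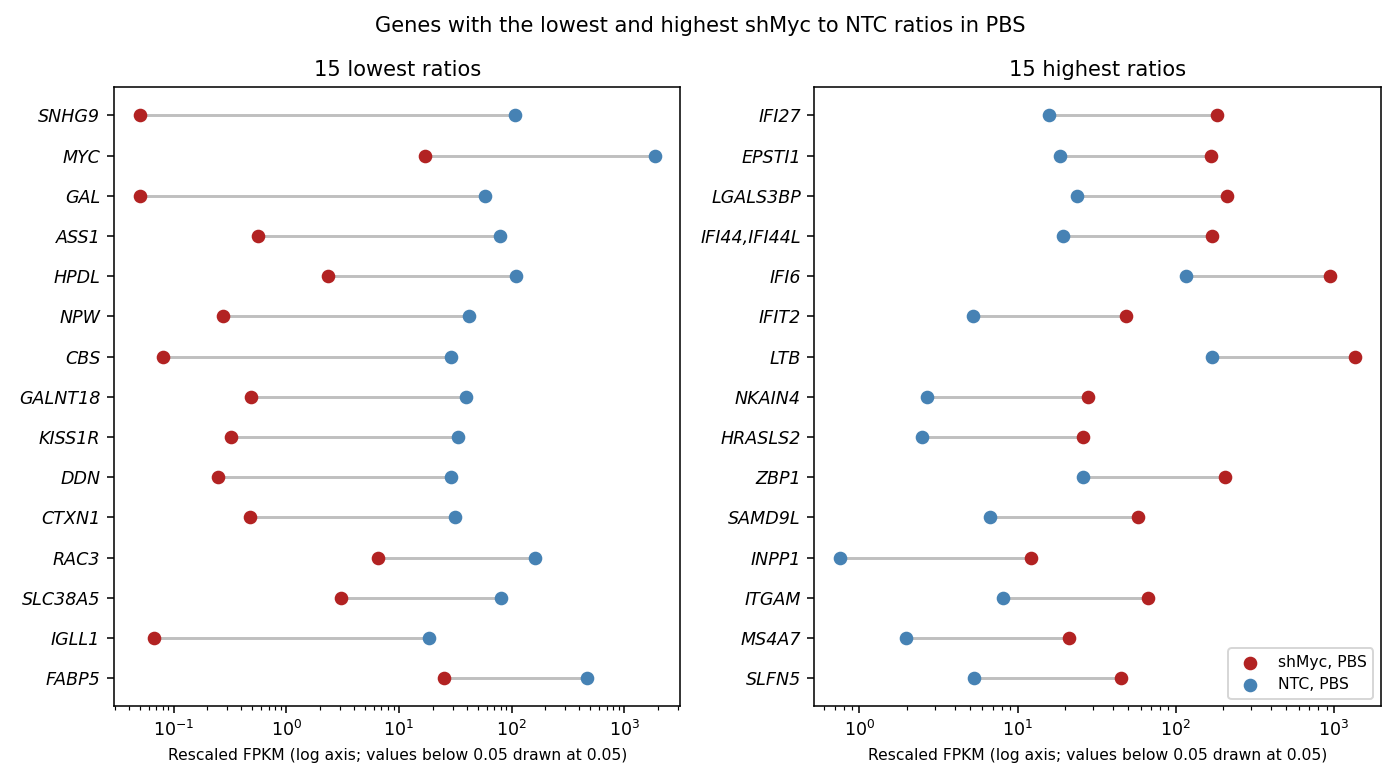
Rescaled FPKM, on a log axis, of the 15 genes with the lowest and the 15 with the highest ratio in PBS, with the shMyc library in red, the NTC library in blue and 1 library per point. The genes on the left stand at 0 to 25.1 FPKM in shMyc cells and at 18.5 to 1868 FPKM in NTC cells; those on the right are 7.97-fold to 16.2-fold higher in shMyc cells.

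MYC works within a network of related factors that compete for MAX. MAX itself had 80.6 FPKM in shMyc and 70.1 FPKM in NTC, and the repressor partner MNT 12.7 FPKM in shMyc and 15.7 FPKM in NTC, both within 2-fold. Among the MXD proteins, which pair with MAX in MYC's place and repress, MXI1 was lower, with 2.48 FPKM in shMyc and 10.2 FPKM in NTC. MXD4 was on the other side, with 65.7 FPKM in shMyc and 34.1 FPKM in NTC, a log2 ratio of 0.92, just short of 2-fold. Of 13 network genes, 9 passed the filter, with 2 lower (MYC itself and MXI1) and 0 higher. Among cofactors of MYC, 7 of 29 were lower and 1 higher, against 17% lower and 14.4% higher over all genes. Their median ratio of 0.10 turned to -0.04 with values as deposited. The lower ones included the ATPases RUVBL1 (26.6 FPKM in shMyc, 153 FPKM in NTC) and RUVBL2 (41.9 FPKM in shMyc, 211 FPKM in NTC) and WDR5, a docking protein for MYC on chromatin (24.6 FPKM in shMyc, 94.5 FPKM in NTC).

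Promoters of the lower and the higher genes differed in their sequence letters. For 8688 of the genes a promoter, 250 bases before to 50 after the annotated start, could be matched by symbol in RefSeq (GRCh38.p14). The E-box CACGTG, the site of MYC and MAX, stood in 15.1% of promoters of lower genes, 10.2% of those within 2-fold and 7.94% of those of higher genes, against 7.26% of all 35116 promoters in the table. The core of the interferon response element (GAAA, any 2 bases, GAAA), like every motif searched on both strands, ran the other way, with 1.86% of lower, 2.60% of within and 6.17% of higher genes, against 3.57% of all promoters. With classes set at 3-fold, the E-box stood in 19.4% of lower and 5.02% of higher genes, and the interferon response core in 1.27% of lower and 11.2% of higher genes. The classes also differed in base composition, with a mean of 65.3% G and C in lower, 64.8% in within and 62.5% in higher genes. The letters CG in a row, which the E-box contains, stood a mean of 27.7 times per promoter in lower, 26.6 in within and 21.4 in higher genes. The part of base composition in these shares was not tested.

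The E-box shares were also compared at matched expression levels. Among genes over 100 FPKM in the NTC library in DMS, which is outside the pair, the E-box stood in 49 of 306 lower genes (16.0%) and in 46 of 408 genes within 2-fold (11.3%). Among genes under 10 FPKM it stood in 36 of 276 lower genes (13.0%), 269 of 2832 within (9.50%) and 48 of 755 higher genes (6.36%). At 10 to 30 FPKM the shares were 16.6% of lower, 10.2% of within and 11.6% of higher genes, so that higher genes did not lie below those within 2-fold there. At 30 to 100 FPKM they were 14.4% of lower, 11.5% of within and 10.4% of higher genes. The E2F site TTTCCCGC, linked to genes of DNA synthesis, stood in 4.26% of lower, 2.60% of within and 2.11% of higher genes, against 1.63% of all promoters. A kappa B site (GGG, any 2 bases, TTTCC) stood in 2.33% of lower, 1.92% of within and 3.72% of higher genes, against 1.91% of all promoters. The cell cycle element TTTGAA (11.1% of lower, 9.21% of within and 12.0% of higher genes, 15.2% of all) and CCAAT (39.3% of lower, 38.1% of within and 32.9% of higher genes, 34.6% of all) showed no such contrast between lower genes and those within 2-fold. A match is a run of letters and not a measured binding site.

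**Figure D2:**
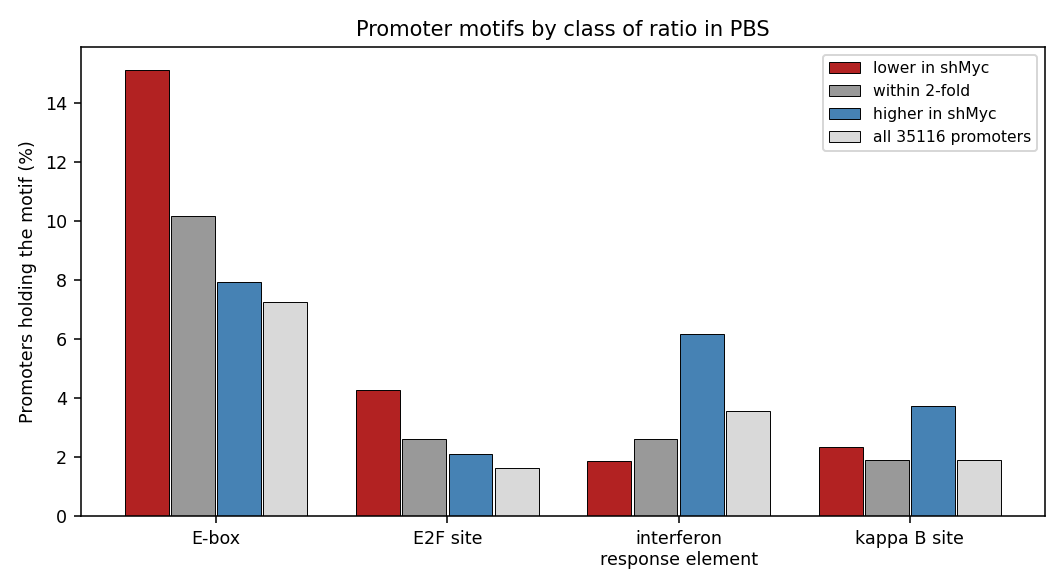
Percent of promoters, from 250 bases before to 50 after the gene start, that hold each motif on either strand, for genes at least 2-fold lower, within 2-fold and at least 2-fold higher in shMyc cells and for all 35116 promoters. The E-box and the E2F site stand highest in lower genes (15.1% and 4.26%), the interferon response and kappa B letters in higher genes (6.17% and 3.72%).

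The promoters of 4 lower genes that hold an E-box show where it lies in them. They were picked as the lowest member with an E-box of each of 4 lists, for polyamines (SRM), purines (PPAT), ribosome assembly (RRP9) and mitochondrial protein folding (HSPD1). All are RefSeq sequences of GRCh38.p14, 5′ to 3′ on the strand of the gene, with the E-box in capitals, and they lie at chr1:11059969-11060268 (minus strand), chr4:56435566-56435865 (minus), chr3:51941855-51942154 (minus) and chr2:197500225-197500524 (minus). Counted from the gene start, with negative positions before it, the E-box starts at -199 in SRM, -182 in PPAT, -5 in RRP9 and -88 in HSPD1.
SRM: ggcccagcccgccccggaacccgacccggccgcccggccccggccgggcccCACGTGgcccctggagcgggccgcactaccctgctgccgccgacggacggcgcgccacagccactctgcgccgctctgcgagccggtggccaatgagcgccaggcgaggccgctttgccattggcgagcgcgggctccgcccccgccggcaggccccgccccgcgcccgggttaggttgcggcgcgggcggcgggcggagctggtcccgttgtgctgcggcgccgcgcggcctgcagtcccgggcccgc
PPAT: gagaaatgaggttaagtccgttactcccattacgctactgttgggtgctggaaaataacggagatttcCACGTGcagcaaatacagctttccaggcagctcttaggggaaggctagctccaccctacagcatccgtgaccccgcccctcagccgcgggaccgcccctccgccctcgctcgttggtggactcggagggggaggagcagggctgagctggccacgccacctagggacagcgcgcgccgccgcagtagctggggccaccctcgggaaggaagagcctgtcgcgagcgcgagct
RRP9: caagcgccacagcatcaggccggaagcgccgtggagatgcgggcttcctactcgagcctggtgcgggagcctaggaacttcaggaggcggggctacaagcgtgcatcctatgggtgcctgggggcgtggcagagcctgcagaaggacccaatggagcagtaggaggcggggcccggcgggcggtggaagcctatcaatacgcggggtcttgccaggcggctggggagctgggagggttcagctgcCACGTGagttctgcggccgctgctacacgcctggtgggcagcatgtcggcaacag
HSPD1: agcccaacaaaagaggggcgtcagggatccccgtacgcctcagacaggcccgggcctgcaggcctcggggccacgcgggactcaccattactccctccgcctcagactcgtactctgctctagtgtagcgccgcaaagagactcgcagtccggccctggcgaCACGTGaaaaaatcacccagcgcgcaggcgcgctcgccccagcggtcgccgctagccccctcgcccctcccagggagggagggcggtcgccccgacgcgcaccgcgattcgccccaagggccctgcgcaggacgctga

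SRM, spermidine synthase, had 26.6 FPKM in shMyc and 304 FPKM in NTC. PPAT, the entry enzyme of purine synthesis, had 3.20 FPKM in shMyc and 25.4 FPKM in NTC. RRP9, a protein of the U3 small nucleolar particle, had 12.8 FPKM in shMyc and 117 FPKM in NTC, and HSPD1, the mitochondrial chaperonin HSP60, had 54.2 FPKM in shMyc and 555 FPKM in NTC. The log2 ratios of the 4 ran from -3.47 for SRM to -2.65 for PPAT. Of the ribosome assembly list, 22 of 54 matched promoters held the E-box. The polyamine, purine and mitochondrial import lists had fewer, with 2 of 10, 2 of 15 and 5 of 28, against 15.1% of all lower genes. Some other lower lists had fewer still, with 7 of 64 for mitochondrial ribosomal proteins and 1 of 30 for the chaperonin and heat shock list.

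The 3 interferon-stimulated genes with the highest ratios that hold the interferon response core are shown in the same way, with the core in capitals. They lie at chr14:94110486-94110785 (plus strand), chr13:42992192-42992491 (minus) and chr17:78979874-78980173 (minus) of GRCh38.p14. IFI27 holds 2 matches, the first at -108 and on the opposite strand, and the matches in EPSTI1 and LGALS3BP start at -50 and -58. Of the list of interferon-stimulated effectors, 24 of 40 matched promoters held the letters.
IFI27: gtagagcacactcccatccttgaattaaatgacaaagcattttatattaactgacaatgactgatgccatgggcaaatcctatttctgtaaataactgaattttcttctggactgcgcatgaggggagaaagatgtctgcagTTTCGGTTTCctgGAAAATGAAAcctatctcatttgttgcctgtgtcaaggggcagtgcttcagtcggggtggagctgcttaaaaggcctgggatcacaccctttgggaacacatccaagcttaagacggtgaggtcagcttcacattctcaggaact
EPSTI1: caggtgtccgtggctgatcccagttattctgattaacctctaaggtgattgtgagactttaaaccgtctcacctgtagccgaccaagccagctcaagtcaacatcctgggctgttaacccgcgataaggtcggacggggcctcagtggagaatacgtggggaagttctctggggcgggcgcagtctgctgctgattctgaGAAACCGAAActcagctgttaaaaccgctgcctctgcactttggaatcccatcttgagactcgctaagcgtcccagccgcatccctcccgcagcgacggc
LGALS3BP: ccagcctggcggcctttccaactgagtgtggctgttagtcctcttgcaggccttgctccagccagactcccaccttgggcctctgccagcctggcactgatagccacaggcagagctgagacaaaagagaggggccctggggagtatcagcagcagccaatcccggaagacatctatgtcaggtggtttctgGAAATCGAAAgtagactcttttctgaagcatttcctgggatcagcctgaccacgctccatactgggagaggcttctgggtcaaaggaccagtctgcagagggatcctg

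Genes of ribosome assembly, which process and fold ribosomal RNA in the nucleolus, were lower almost throughout. Of 65 members, 57 were at least 2-fold lower and 0 higher, with a median ratio of -2.0 against a median of -0.00 over all genes. LYAR, a nucleolar growth factor, had 4.79 FPKM in shMyc and 70.6 FPKM in NTC. NPM3, a nucleophosmin relative, had 19.9 FPKM in shMyc and 204 FPKM in NTC, and NOP16 17.2 FPKM in shMyc and 172 FPKM in NTC. NOC3L was the member without a decrease, with 16.7 FPKM in shMyc and 15.6 FPKM in NTC.

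The polymerases that make ribosomal and transfer RNA were partly lower. Of 36 genes of RNA polymerases I and III and their factors, 14 were lower and 1 higher. POLR1B, a catalytic subunit of polymerase I, had 5.34 FPKM in shMyc and 27.9 FPKM in NTC, while UBTF, its upstream binding factor, had 67.0 FPKM in shMyc and 76.3 FPKM in NTC. POLR3G, a subunit of polymerase III known from stem cells and tumours, had 0.602 FPKM in shMyc and 16.8 FPKM in NTC. Its paralogue POLR3GL, the form of most differentiated cells, had 35.1 FPKM in shMyc and 15.5 FPKM in NTC. Per length, the pair stood level in NTC cells and apart in shMyc cells. Among 12 subunits of polymerase II, 5 were lower, led by POLR2H (15.4 FPKM in shMyc, 68.6 FPKM in NTC), while the largest subunit POLR2A had 51.7 FPKM in shMyc and 55.9 FPKM in NTC.

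Ribosomal proteins themselves moved little on the ratio scale. Of 84 cytosolic ribosomal protein genes 6 were lower (3 with upper quartile scaling) and 0 higher, with a median of -0.30. The lowest were variant forms, RPL22L1 (23.7 FPKM in shMyc, 85.3 FPKM in NTC), RPL26L1 (35.3 FPKM in shMyc, 106 FPKM in NTC) and RPL39L (5.75 FPKM in shMyc, 15 FPKM in NTC). In absolute FPKM they still made up 8 of the 10 largest decreases among named genes, beside MIF, a cytokine, and the joint row of NME1 and NME2. RPS2 had 4548 FPKM in shMyc and 9185 FPKM in NTC, and RPL7A 4285 FPKM in shMyc and 7135 FPKM in NTC. RPS27 went the other way, with 25052 FPKM in shMyc and 15510 FPKM in NTC. Ribosomal protein genes have many processed pseudogenes, and reads that match several copies could be split between them.

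The initiation and charging steps of translation were lower for particular members. Of 49 translation factors 20 were lower, among them EIF4EBP1, a repressor of cap-dependent initiation (35.4 FPKM in shMyc, 203 FPKM in NTC), EIF4A3 of the exon junction complex (52.9 FPKM in shMyc, 255 FPKM in NTC) and GSPT1, a release factor (11.7 FPKM in shMyc, 47.4 FPKM in NTC). EIF4A2 had 107 FPKM in shMyc and 78.0 FPKM in NTC. Of 22 aminoacyl-tRNA synthetase genes 14 were lower. FARSB, for phenylalanine, had 7.81 FPKM in shMyc and 61.5 FPKM in NTC, and VARS, for valine, 14.9 FPKM in shMyc and 85.9 FPKM in NTC. WARS, for tryptophan and itself a known interferon target, was within 2-fold, with 90.6 FPKM in shMyc and 77.8 FPKM in NTC.

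The enzymes that make nucleotides were lower as a group. Of 17 purine genes 16 were lower and 0 higher (median -1.89), with PAICS at 15.3 FPKM in shMyc and 150 FPKM in NTC and IMPDH2, which commits IMP to GTP, at 45.0 FPKM in shMyc and 227 FPKM in NTC. Of 17 pyrimidine genes 11 were lower and 1 higher. CAD, which holds the initial steps of pyrimidine synthesis, had 7.96 FPKM in shMyc and 49.8 FPKM in NTC. The higher one was SAMHD1, which degrades deoxynucleotides and restricts viruses, with 60.7 FPKM in shMyc and 25.2 FPKM in NTC. Its counterpart in supply also parted by paralogue, since CTPS1 had 11.3 FPKM in shMyc and 51.9 FPKM in NTC while CTPS2 had 5.52 FPKM in shMyc and 4.75 FPKM in NTC.

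Amino acid metabolism showed large differences at single steps. In the serine and folate list 13 of 15 genes were lower, and the steps at the top of serine synthesis led it, with PSAT1 at 4.12 FPKM in shMyc and 69.9 FPKM in NTC and PHGDH at 10.7 FPKM in shMyc and 122 FPKM in NTC. In the methionine cycle 5 of 13 were lower and 0 higher. AHCY, which clears S-adenosylhomocysteine, the inhibitor of methyltransferases, had 48.8 FPKM in shMyc and 335 FPKM in NTC, and MTAP, which salvages methionine from polyamine synthesis, had 10.9 FPKM in shMyc and 41.7 FPKM in NTC. The partner subunits of methionine adenosyltransferase parted: MAT2A had 55.1 FPKM in shMyc and 137 FPKM in NTC, and MAT2B 49.6 FPKM in shMyc and 35.0 FPKM in NTC.

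Proline and arginine enzymes followed the same side, with 4 of 9 lower and 0 higher. PYCR1, the mitochondrial proline synthase, had 24.1 FPKM in shMyc and 179 FPKM in NTC, and ALDH18A1, which makes its precursor, 24.9 FPKM in shMyc and 105 FPKM in NTC. Of 18 amino acid transporter genes 7 were lower and 0 higher. SLC7A5 and SLC3A2, the light and heavy chains of the leucine exchanger LAT1, had 10.2 FPKM and 26.2 FPKM in shMyc, against 159 FPKM and 134 FPKM in NTC. SLC1A5, the glutamine transporter ASCT2, had 16.8 FPKM in shMyc and 79.2 FPKM in NTC. SLC38A2, which takes up neutral amino acids on starvation, had 31.7 FPKM in shMyc and 21.3 FPKM in NTC.

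Polyamine genes moved in opposite directions for synthesis and breakdown. ODC1, the entry enzyme and a textbook MYC target, had 66.9 FPKM in shMyc and 385 FPKM in NTC, and AMD1, which supplies the aminopropyl groups, 6.68 FPKM in shMyc and 23.7 FPKM in NTC. SAT1, which acetylates polyamines for export and breakdown, had 169 FPKM in shMyc and 24.8 FPKM in NTC, and the polyamine oxidase gene PAOX 11.4 FPKM in shMyc and 4.63 FPKM in NTC. Of 12 members 6 were lower and 2 higher. EIF5A, the translation factor modified with spermidine, had 479 FPKM in shMyc and 1596 FPKM in NTC, and DOHH, which completes that modification, 10.0 FPKM in shMyc and 36.9 FPKM in NTC.

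Mitochondrial genes were lower, most often those that bring in and fold proteins. Of 35 import and folding genes 30 were lower (median -1.49), of 76 mitochondrial ribosomal protein genes 45 (median -1.19), of 44 complex I genes 17 (median -0.86) and of 39 genes of the TCA cycle and glutamine use 14 (median -0.85), with 0 higher in each. TRAP1, the mitochondrial HSP90, had 29.9 FPKM in shMyc and 373 FPKM in NTC, and TOMM40, the outer membrane pore, 33.3 FPKM in shMyc and 292 FPKM in NTC. NDUFAF2, an assembly factor, was the lowest complex I gene, with 12.2 FPKM in shMyc and 179 FPKM in NTC, far below the structural subunits. The gene copies for subunit c of ATP synthase parted, with ATP5G1 at 108 FPKM in shMyc and 901 FPKM in NTC and ATP5G2 at 624 FPKM in shMyc and 638 FPKM in NTC.

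The factors that copy and transcribe mitochondrial DNA were partly lower, 11 of 20. POLRMT, the mitochondrial RNA polymerase, had 12.2 FPKM in shMyc and 52.9 FPKM in NTC, and the helicase gene C10orf2 8.29 FPKM in shMyc and 49.6 FPKM in NTC. The nuclear regulators of this programme were not lower: NRF1, GABPA (10.6 FPKM in shMyc, 9.06 FPKM in NTC) and ESRRA (44.5 FPKM in shMyc, 51.6 FPKM in NTC) were within 2-fold. The study's own pathway, succinate dehydrogenase and its assembly factors, was lower in part. SDHA, the flavoprotein, had 60.6 FPKM in shMyc and 142 FPKM in NTC, and SDHB, the iron-sulphur subunit, 51.0 FPKM in shMyc and 125 FPKM in NTC. SDHC had 36.8 FPKM in shMyc and 46.9 FPKM in NTC, and SDHD 51.6 FPKM in shMyc and 94.1 FPKM in NTC, both within 2-fold. Among assembly factors SDHAF3 was lower, with 12.0 FPKM in shMyc and 47.9 FPKM in NTC, and SDHAF2, which attaches the flavin, had 60.1 FPKM in shMyc and 43.6 FPKM in NTC.

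SKP2, the F-box protein that marks CDK inhibitors for breakdown, had 10.9 FPKM in shMyc and 33.1 FPKM in NTC. SIRT3, the mitochondrial deacetylase, had 7.26 FPKM in shMyc and 9.72 FPKM in NTC, within 2-fold, and 0 of 12 genes of sirtuins and NAD synthesis were at least 2-fold lower or higher in PBS (with a pseudocount of 0.1, 1 was lower). NAMPT, the rate-limiting enzyme of NAD salvage, had 7.43 FPKM in shMyc and 12.9 FPKM in NTC.

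Sugar and lipid genes held members on both sides. Of 23 glycolytic genes 11 were lower and 3 higher. LDHA had 195 FPKM in shMyc and 839 FPKM in NTC, and the lactate exporter SLC16A1 5.83 FPKM in shMyc and 43.4 FPKM in NTC. SLC2A3, the high-affinity glucose transporter GLUT3, had 20.5 FPKM in shMyc and 3.73 FPKM in NTC, and its relative SLC2A1 53.1 FPKM in shMyc and 30.9 FPKM in NTC. Fatty acid synthesis was lower at its core, with SCD at 14 FPKM in shMyc and 131 FPKM in NTC and FASN at 14.4 FPKM in shMyc and 92.7 FPKM in NTC, 6 of 16 members lower and 1 higher in all. Cholesterol synthesis had 5 of 23 lower and 1 higher, against 17% lower and 14.4% higher over all genes. The lower ones were late enzymes such as DHCR7 (9.97 FPKM in shMyc, 55.6 FPKM in NTC), while its regulator SREBF2 had 110 FPKM in shMyc and 79.7 FPKM in NTC.

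**Figure D3:**
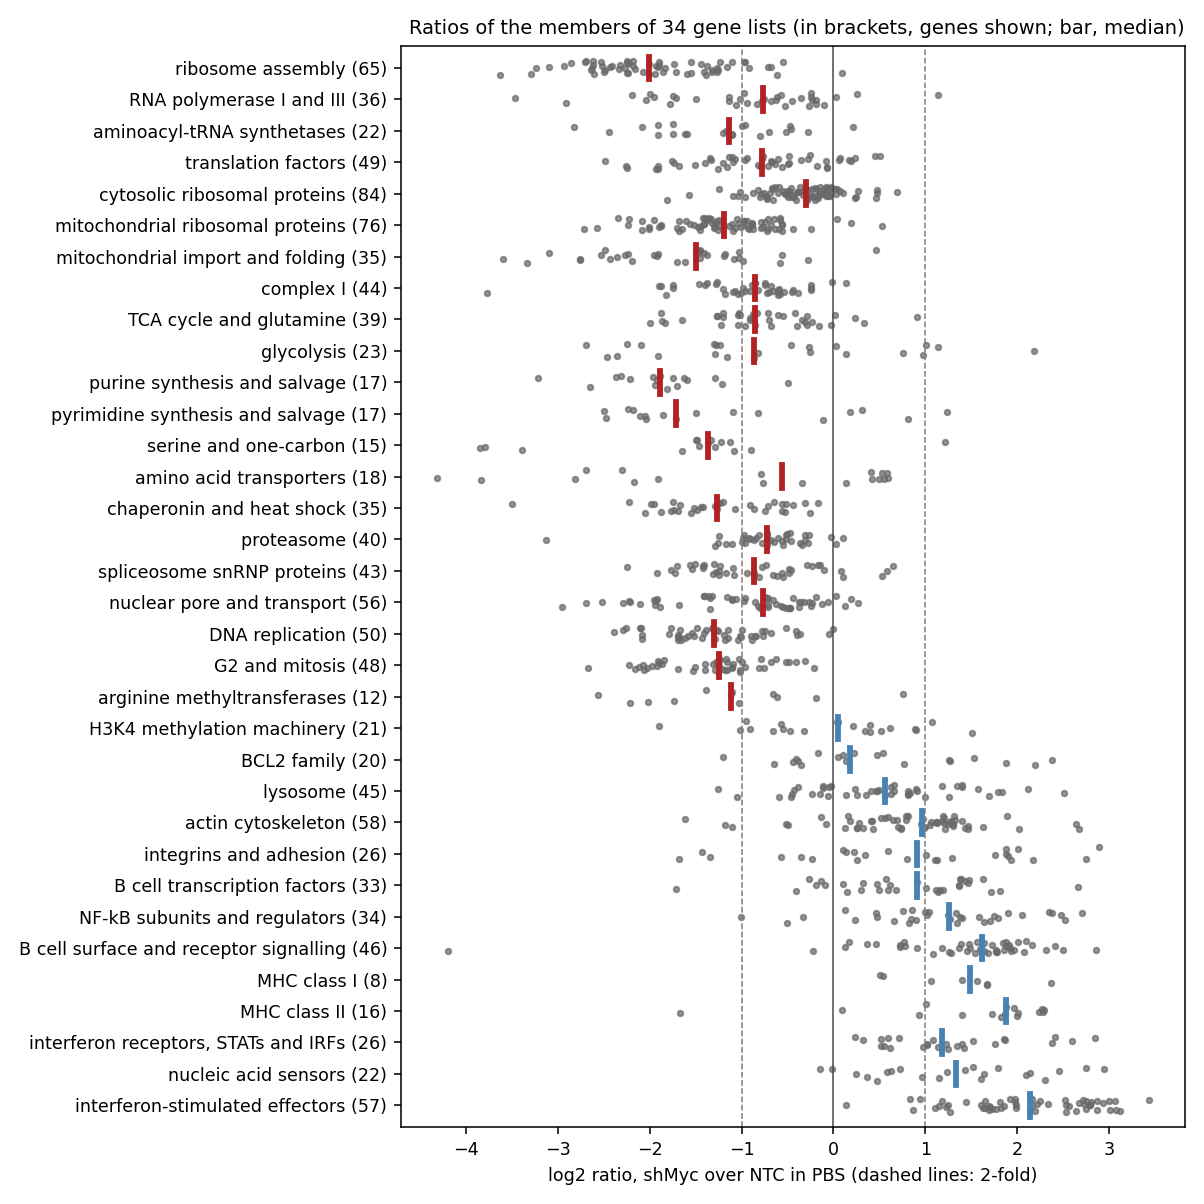
Log2 ratios, shMyc over NTC in PBS, of the members of 34 gene lists that passed the filter, with 1 point per gene and a bar at each median (red where it is below 0, blue where above). Ribosome assembly lies furthest to the left (median -2.0) and interferon-stimulated effectors furthest to the right (median 2.14) of those drawn, while cytosolic ribosomal proteins sit near 0 (median -0.30).

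Protein folding and turnover differed from each other. Of 35 genes of the chaperonin and heat shock list 22 were lower, led by FKBP4, a co-chaperone of HSP90 (10.0 FPKM in shMyc, 124 FPKM in NTC), and HSP90AB1 itself (217 FPKM in shMyc, 1022 FPKM in NTC). HSF1, the heat shock factor, was within 2-fold, with 59.4 FPKM in shMyc and 71.1 FPKM in NTC. Of 40 proteasome genes 6 were lower (12 with values as deposited), and the assembly chaperone PSMG1 stood apart, with 10.7 FPKM in shMyc and 101 FPKM in NTC. Of the subunits that replace its catalytic sites in immune cells, PSMB9 was higher and had 366 FPKM in shMyc and 120 FPKM in NTC, while the constitutive PSMB5 had 55.1 FPKM in shMyc and 133 FPKM in NTC. PSMB8 and PSMB10, with 321 and 330 FPKM in shMyc and 235 and 192 FPKM in NTC, were within 2-fold.

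In the secretory pathway the genes for the signal recognition particle, translocon and signal peptidase hardly differed, with 1 of 30 lower (3 with values as deposited). XBP1, the factor of the unfolded protein response and of plasma cells, had 25.4 FPKM in shMyc and 85.3 FPKM in NTC. Its targets SDF2L1 (42.2 FPKM in shMyc, 144 FPKM in NTC) and HSPA5 (74.5 FPKM in shMyc, 177 FPKM in NTC) were lower too, and HERPUD1, of endoplasmic reticulum degradation, was higher (71.3 FPKM in shMyc, 33.2 FPKM in NTC). ASNS, asparagine synthetase and a target of ATF4, had 9.49 FPKM in shMyc and 34.4 FPKM in NTC. Of 14 plasma cell genes 4 were lower and 2 higher, with SDC1, which encodes CD138, at 0.823 FPKM in shMyc and 8.43 FPKM in NTC and PRDM1, the plasma cell repressor, at 1.53 FPKM in shMyc and 1.29 FPKM in NTC.

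Splicing, export and methylation genes lay between these extremes. Of 43 proteins of the splicing particles 20 were lower, with SNRPF of the Sm ring at 73.8 FPKM in shMyc and 354 FPKM in NTC and the branch point factor SF3B1 at 102 FPKM in shMyc and 68.0 FPKM in NTC. Of 56 nuclear pore and transport genes 23 were lower. Among them were RCC1, the exchange factor of the RAN cycle, at 24.2 FPKM in shMyc and 194 FPKM in NTC and its partner RANBP1 at 77.4 FPKM in shMyc and 448 FPKM in NTC, while the pore's basket protein TPR had 9.78 FPKM in shMyc and 8.86 FPKM in NTC. Of 12 arginine methyltransferase genes 8 were lower (5 with upper quartile scaling). PRMT5, which methylates Sm proteins, had 14.3 FPKM in shMyc and 89.4 FPKM in NTC, and PRMT1 147 FPKM in shMyc and 601 FPKM in NTC.

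Of 15 genes of telomerase and telomere proteins 5 were lower and 2 higher. TERT, the catalytic subunit, had 0.345 FPKM in shMyc and 10.1 FPKM in NTC. DKC1, the pseudouridine synthase that stabilises the telomerase RNA, had 19.8 FPKM in shMyc and 93.5 FPKM in NTC. The higher ones were TINF2, a shelterin subunit, which had 55.7 FPKM in shMyc and 22.5 FPKM in NTC, and CTC1, which ends telomere extension, with 12.9 FPKM in shMyc and 5.61 FPKM in NTC.

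Cell cycle genes were lower in the phases of DNA synthesis and division. Of 50 replication genes 36 were lower (23 with a pseudocount of 5) and of 48 genes of G2 and mitosis 36, with 0 higher in either. POLD2, of DNA polymerase delta, had 37.5 FPKM in shMyc and 201 FPKM in NTC, GMNN, which limits origin licensing, 4.69 FPKM in shMyc and 26.3 FPKM in NTC, and MAD2L1, of the spindle checkpoint, 10.6 FPKM in shMyc and 73.1 FPKM in NTC. MKI67, the proliferation marker, stayed within 2-fold, with 17.7 FPKM in shMyc and 25.1 FPKM in NTC. Origin recognition genes such as ORC3, with 3.88 FPKM in shMyc and 3.92 FPKM in NTC, were level. At the entry to the cycle, CDK4 had 46.1 FPKM in shMyc and 181 FPKM in NTC and CDC25A 3.77 FPKM in shMyc and 28.2 FPKM in NTC, while RB1, the brake on E2F, had 57.4 FPKM in shMyc and 27.2 FPKM in NTC.

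The inhibitors of cyclin-dependent kinases did not share a direction. CDKN2D had 78.6 FPKM in shMyc and 26.5 FPKM in NTC, and CDKN1B, which encodes p27, 8.87 FPKM in shMyc and 3.67 FPKM in NTC. CDKN2A had 11 FPKM in shMyc and 40.2 FPKM in NTC, and CDKN1C 1.45 FPKM in shMyc and 4.06 FPKM in NTC. CDKN1A, which encodes p21 and which MYC is known to repress, had 60.4 FPKM in shMyc and 65.2 FPKM in NTC. Among 31 genes known as p53 targets 7 were higher and 2 lower, against 14.4% higher and 17% lower over all genes. BTG2, an antiproliferative gene, had 383 FPKM in shMyc and 98.9 FPKM in NTC, and FAS, a death receptor, 18.6 FPKM in shMyc and 4.21 FPKM in NTC. MDM2, PMAIP1 and BAX had ratios of 0.11, 0.05 and 0.14, close to the control.

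Of 58 DNA repair genes 18 were lower (11 with a pseudocount of 5) and 2 higher. UNG, which removes uracil from DNA, had 13.8 FPKM in shMyc and 99.2 FPKM in NTC, and NTHL1, which removes oxidised bases, 13.5 FPKM in shMyc and 92.3 FPKM in NTC. ATM, the kinase that answers double-strand breaks, had 20.5 FPKM in shMyc and 5.46 FPKM in NTC, and LIG4, of end joining, 8.69 FPKM in shMyc and 3.25 FPKM in NTC. The APOBEC3 genes D, F, G and H were higher, with APOBEC3G, which edits retroviral DNA, at 58.7 FPKM in shMyc and 25.7 FPKM in NTC.

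Interferon-stimulated genes were higher almost throughout. Of 57 effectors 53 were higher and 0 lower, with a median of 2.14 and a summed level of 12909 FPKM in shMyc and 3183 FPKM in NTC. ISG15, a ubiquitin-like modifier, had 3603 FPKM in shMyc and 610 FPKM in NTC. RSAD2 and OASL, antiviral enzymes, had ratios of 2.88 and 2.87. TRIM14, with 39.0 FPKM in shMyc and 35.3 FPKM in NTC, was the member closest to the control.

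The upstream parts of the interferon pathway were higher in the same libraries, while the interferon genes themselves were near 0. STAT2, which interferon receptors activate, had 104 FPKM in shMyc and 19.3 FPKM in NTC, and IRF7, which amplifies type I interferon, 231 FPKM in shMyc and 31.1 FPKM in NTC. Of 26 genes of receptors, STATs and IRFs 17 were higher and 0 lower, but IFNAR1 had 9.11 FPKM in shMyc and 7.58 FPKM in NTC. The feedback inhibitor SOCS1 had 98.5 FPKM in shMyc and 17.6 FPKM in NTC. Of 9 interferon genes none passed the filter. IFNB1, IFNG, IFNA1 and IFNL1 were listed at 0 in both libraries, and IFNA2 had 1.58 FPKM in shMyc and 0.112 FPKM in NTC.

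Of 22 nucleic acid sensor genes 13 were higher and 0 lower. DDX58, which encodes RIG-I, had 43.6 FPKM in shMyc and 5.62 FPKM in NTC, IFIH1, which encodes MDA5, 29.8 FPKM in shMyc and 4.61 FPKM in NTC, and ZBP1, a sensor of Z-form nucleic acid, 206 FPKM in shMyc and 25.9 FPKM in NTC. The DNA sensor MB21D1 (cGAS) had 19.2 FPKM in shMyc and 14.7 FPKM in NTC, its adaptor TMEM173 (STING) 15.6 FPKM in shMyc and 10.1 FPKM in NTC, and TLR9 31.1 FPKM in shMyc and 26.2 FPKM in NTC, all within 2-fold, whereas the DNA sensor AIM2 had a ratio of 2.1. Both groups had been infected with virus.

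Antigen presentation genes were higher for both classes. For class II, which shows peptides to helper T cells, 13 of 16 were higher and 1 lower. CD74, the invariant chain, had 9092 FPKM in shMyc and 2751 FPKM in NTC. Among named genes that was the second largest absolute increase after RPS27. The lower one was RFXAP, a subunit of the factor that drives class II promoters, with 3.46 FPKM in shMyc and 13.2 FPKM in NTC. For class I 6 of 8 were higher, with HLA-E at 592 FPKM in shMyc and 114 FPKM in NTC and B2M at 5362 FPKM in shMyc and 2029 FPKM in NTC. Peptide loading followed in part, TAP1 with 171 FPKM in shMyc and 57.0 FPKM in NTC, while CANX, the chaperone calnexin, was lower, with 41.0 FPKM in shMyc and 96.9 FPKM in NTC. HLA genes are near-identical paralogues, and some rows of the tables join them, so levels of single HLA genes are uncertain.

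The NF-kB pathway and the surface proteins of activated B cells were higher. Of 34 subunits and regulators 20 were higher and 1 lower. TRAF1 had 173 FPKM in shMyc and 25.6 FPKM in NTC, TNFAIP3, the feedback inhibitor A20, 32.5 FPKM in shMyc and 4.85 FPKM in NTC, and BIRC3, an inhibitor of cell death, 29.6 FPKM in shMyc and 5.01 FPKM in NTC. RELA, the main activating subunit, had 49.9 FPKM in shMyc and 42.2 FPKM in NTC. Of 29 matched promoters of this list 7 held the kappa B letters.

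Secreted and surface ligands were among the higher genes with the highest levels. CCL22, which attracts T cells through CCR4, had 1043 FPKM in shMyc and 144 FPKM in NTC, and CCL17, for the same receptor, 255 FPKM in shMyc and 37.5 FPKM in NTC. The homing receptors CCR7 (30.8 FPKM in shMyc, 5.07 FPKM in NTC) and CXCR5 (19.8 FPKM in shMyc, 2.77 FPKM in NTC) were higher, whereas CXCR4, which holds germinal centre cells in the dark zone, was level (21.1 FPKM in shMyc, 17.5 FPKM in NTC). Of 18 chemokine and receptor genes 13 were higher (8 with a pseudocount of 5). In the TNF family 11 of 26 were higher and 0 lower, with TNF at 36.6 FPKM in shMyc and 4.61 FPKM in NTC and CD40 at a ratio of 2.21. Among cytokines and their receptors 12 of 22 were higher and 2 lower, with EBI3, a shared subunit of IL-27 and IL-35, at 248 FPKM in shMyc and 43.2 FPKM in NTC, and IL7R at 9.60 FPKM in shMyc and 31.4 FPKM in NTC.

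B cell identity genes were higher at the surface and among part of the transcription factors. Of 46 genes of the B cell surface and receptor signalling 35 were higher and 1, IGLL1, lower. CD72, an inhibitory coreceptor, had 269 FPKM in shMyc and 53.2 FPKM in NTC, CD37 819 FPKM in shMyc and 182 FPKM in NTC, and FCRL5 255 FPKM in shMyc and 44.3 FPKM in NTC. CD38 and CD81 did not differ by 2-fold. Of 33 transcription factors 16 were higher, with LMO2 at 34.5 FPKM in shMyc and 4.62 FPKM in NTC and KLF2, a factor of quiescence and trafficking, at 282 FPKM in shMyc and 84.8 FPKM in NTC. TCF3 and its inhibitor ID3, a pair often mutated in Burkitt lymphoma, were level, with 167 and 162 FPKM in shMyc, against 201 and 184 FPKM in NTC.

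Genes of cell death were more often higher than lower. Among 20 BCL2 family genes 6 were higher and 1 lower. Of those that protect cells, 4 were higher, with BCL2 at 13.0 FPKM in shMyc and 2.81 FPKM in NTC, BCL2A1 at 68.5 FPKM in shMyc and 12.3 FPKM in NTC, BCL2L1 at 65.1 FPKM in shMyc and 21.9 FPKM in NTC and MCL1 at 193 FPKM in shMyc and 79.6 FPKM in NTC. BCL2L11, which encodes the killer protein BIM, was the lower one, with 13.1 FPKM in shMyc and 31.5 FPKM in NTC, whereas the killer HRK was higher, with 11.8 FPKM in shMyc and 1.80 FPKM in NTC. The effectors BAX and BAK1 had ratios of 0.14 and 0.22. Of 22 caspase and inhibitor genes 8 were higher (5 with a pseudocount of 5) and 1, BIRC5 (survivin), lower, with 15.6 FPKM in shMyc and 61.2 FPKM in NTC.

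Adhesion and the actin cytoskeleton were higher and tubulins lower. Of 58 actin-related genes 26 were higher and 3 lower, and FSCN1, which bundles actin, had 280 FPKM in shMyc and 43.2 FPKM in NTC, GSN, which severs it, 57.1 FPKM in shMyc and 8.33 FPKM in NTC, and the monomer-binding gene TMSB4X 9132 FPKM in shMyc and 3701 FPKM in NTC. Of 25 tubulin and microtubule genes 10 were lower and 0 higher, with TUBB3 at 24.3 FPKM in shMyc and 275 FPKM in NTC. The nuclear lamins parted by type. LMNB1 had 41.2 FPKM in shMyc and 94.8 FPKM in NTC, and LMNA had a ratio of 1.19. Of 26 integrin and adhesion genes 13 were higher and 3 lower, with ITGB2, the partner chain of ITGAM, at 95.3 FPKM in shMyc and 20.3 FPKM in NTC and CD82 at 399 FPKM in shMyc and 58.6 FPKM in NTC.

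Lysosomal genes were partly higher, 12 of 45 with 2 lower, led by CD68 (58.0 FPKM in shMyc, 9.33 FPKM in NTC) and CTSH, a cathepsin (287 FPKM in shMyc, 65.3 FPKM in NTC). CD68, ITGAM, ITGAX, TYROBP and LYZ, which encodes lysozyme, are also the 5 higher genes of the myeloid marker list (3 with a pseudocount of 5), and LYZ had 48.7 FPKM in shMyc and 8.31 FPKM in NTC. The part of other cells in these values was not tested. Of 34 autophagy genes 6 were higher and 0 lower, a share of higher genes near the 14.4% over all genes. The count of higher genes ran from 1 with a pseudocount of 5 to 11 with a pseudocount of 0.1 or upper quartile scaling. OPTN, an autophagy receptor, had 6.63 FPKM in shMyc and 1.09 FPKM in NTC.

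Immediate early and stress genes held single large differences. TXNIP, which binds thioredoxin and limits glucose uptake, had 498 FPKM in shMyc and 79.0 FPKM in NTC, and its target TXN 98.5 FPKM in shMyc and 538 FPKM in NTC. JUN had 21.0 FPKM in shMyc and 3.65 FPKM in NTC, and JUNB 207 FPKM in shMyc and 66.0 FPKM in NTC. Of 21 genes of the AP-1 and immediate early list 10 were higher (6 with a pseudocount of 5). In the PI3K, mTOR and FOXO list 8 of 28 were higher (4 with a pseudocount of 5) and 2 lower, and the mTOR partners parted, with RICTOR at 7.66 FPKM in shMyc and 2.07 FPKM in NTC and MLST8 at 20.8 FPKM in shMyc and 71.2 FPKM in NTC.

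Defence against peroxide was lower for 7 of 11 genes. PRDX4 had 20.2 FPKM in shMyc and 141 FPKM in NTC, and SOD2, the mitochondrial superoxide dismutase, 3.63 FPKM in shMyc and 29.4 FPKM in NTC. GPX1, a glutathione peroxidase, was the higher one, with 1219 FPKM in shMyc and 578 FPKM in NTC. HMOX1, which breaks down heme, had 44.2 FPKM in shMyc and 14.1 FPKM in NTC. Metallothioneins did not share a direction, with MT2A at 1010 FPKM in shMyc and 285 FPKM in NTC, MT1E at 103 FPKM in shMyc and 201 FPKM in NTC and MT1G listed at 0 in shMyc and at 5.16 FPKM in NTC. These are near-identical copies whose reads can be split.

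Enzymes that write and erase histone and DNA marks were mostly within 2-fold, with shares of calls to be read against the 14.4% higher and 17% lower over all genes. Of 21 genes of the H3K4 methylation machinery 2 were lower and 2 higher, with a median of 0.05 that turned to -0.08 with values as deposited (4 lower with values as deposited, 1 lower with upper quartile scaling or a pseudocount of 5). KDM1A, a demethylase, had 41.7 FPKM in shMyc and 85.5 FPKM in NTC, and its paralogue KDM1B 14.2 FPKM in shMyc and 4.32 FPKM in NTC. Of 25 oxygenases that use 2-oxoglutarate and are inhibited by succinate 4 were higher (2 to 8 across settings) and 1 lower, with TET2 at 7.00 FPKM in shMyc and 2.32 FPKM in NTC. Of 22 genes of Polycomb repressive complex 2 and DNA methylation 4 were lower (2 with upper quartile scaling), UHRF1 with 13.0 FPKM in shMyc and 56.5 FPKM in NTC.

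Paralogues parted in several chromatin and growth families, pairs that were chosen after their values were seen. KAT2A, an acetyltransferase that serves as a MYC cofactor, had 13.7 FPKM in shMyc and 43.7 FPKM in NTC, and KAT2B 5.28 FPKM in shMyc and 1.39 FPKM in NTC. SMARCA4 had 41.1 FPKM in shMyc and 91.3 FPKM in NTC, and SMARCA2, the alternative ATPase of the same remodelling complex, 44.2 FPKM in shMyc and 23.7 FPKM in NTC, a ratio of 0.87. In NTC cells SMARCA4 was the higher of the pair per length, and in shMyc cells they stood side by side. H2AFZ, the histone variant H2A.Z, had 119 FPKM in shMyc and 568 FPKM in NTC, and the linker variant H1F0, known from resting cells, 9.93 FPKM in shMyc and 1.58 FPKM in NTC.

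Long noncoding genes were more often higher than lower. Of 437 long noncoding genes 19.9% were higher and 14% lower, against 14% higher and 17.3% lower among 10376 protein-coding genes. The classes were not matched by level, and genes of any kind with low levels leaned the same way. Of 1571 genes at 1 to 3 FPKM in the NTC library in DMS, 22.3% were higher and 2.67% lower. These shares are partly built in. The added 1 FPKM leaves such genes little room for a 2-fold fall. At the low end of the bin, the filter also asks for similar or higher values elsewhere. Hosts of small nucleolar RNAs were on the lower side, 9 of 20, with DANCR at 34.4 FPKM in shMyc and 499 FPKM in NTC and SNHG16 at 6.83 FPKM in shMyc and 46.3 FPKM in NTC, though GAS5 had 577 FPKM in shMyc and 655 FPKM in NTC. MALAT1 had 27.5 FPKM in shMyc and 8.40 FPKM in NTC, and NEAT1, which builds paraspeckles, 18.9 FPKM in shMyc and 5.01 FPKM in NTC. The row MIR155,MIR155HG had 56.7 FPKM in shMyc and 16.0 FPKM in NTC, and the row MIR17,MIR17HG,MIR18A,MIR19A,MIR19B1,MIR20A,MIR92A1, a cluster that is a textbook MYC target, 0.643 FPKM in shMyc and 3.18 FPKM in NTC.

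The size and sign of the ratio went with expression level in control cells. Genes that fall on knockdown stand higher in control cells than in knockdown cells, and genes that rise stand lower. Part of this trend is therefore built in by reading the level in a control library. With levels taken from the NTC library in DMS, 42.1% of 627 genes at 100 to 300 FPKM were lower in shMyc cells in PBS and 6.06% higher. At 3 to 10 FPKM, 10.3% of 3169 genes were lower and 14.5% higher. Among 311 genes over 300 FPKM, 34.7% were lower and 5.79% higher. Of 417 genes under 1 FPKM 57.8% were higher, but a gene that low passed the filter mainly by a high value elsewhere, so that share is fixed by the filter. The median ratio was 0.15 at 3 to 10 FPKM and -0.78 at 100 to 300 FPKM. Zinc finger genes of the ZNF series on chromosome 19, a clustered family with low levels, had a median of 0.41 over 135 genes. Of these 22 were higher (16.3%), near the 14.4% over all genes, and 4 lower (2.96%). The 161 ZNF genes elsewhere had a median of 0.19, with 18 higher (11.2%) and 11 lower (6.83%).

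**Figure D4:**
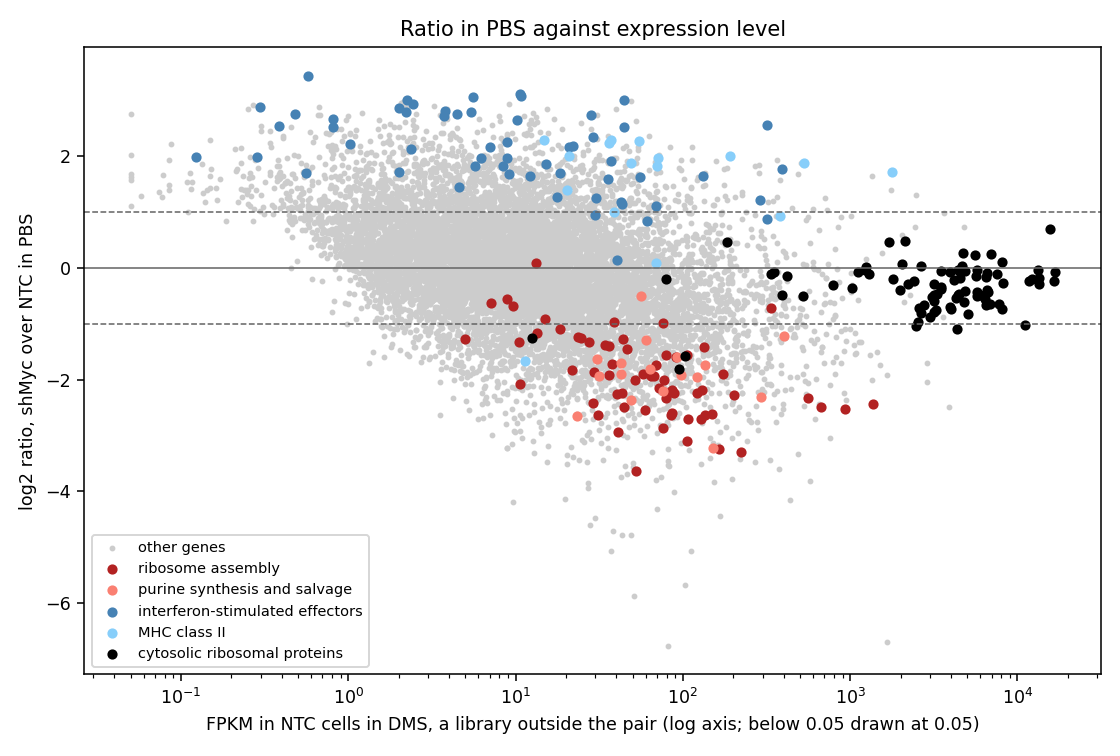
Log2 ratio, shMyc over NTC in PBS, against FPKM of the same gene in the NTC library in DMS (log axis), with 1 point per gene and members of 5 lists in colour. Ribosome assembly genes lie mostly below -1 and interferon-stimulated effectors mostly above 1 over a wide range of levels. Of the cytosolic ribosomal proteins, many of them at high levels, 78 of 84 lie within 2-fold.

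Some neighbouring genes moved together. The longest run of adjacent measured genes with the same call was 9 higher genes at chr1:157483167-158946849 (hg19, coordinates as deposited and counted from 1), from FCRL4 through the FCRL family, CD1D, CD1C and MNDA to PYHIN1. A run of 7 at chr6:31496634-31560762 held LTA, TNF and LTB, and a run of 6 at chr6:26277310-26482737 held 5 butyrophilin genes beside HIST1H4H. On the lower side the longest runs had 5 genes, with TIMM10, SLC43A1, SLC43A3, SSRP1 and TNKS1BP1 at chr11:57067103-57298232. Members of a gene family share sequence and sit side by side, so these runs are no separate observations.

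The knockdown in DMS, where MYC stood at 37.9% of control, gave fewer calls on the lower side. There 401 genes (3.58%) were lower and 1081 (9.66%) higher in shMyc cells. Of the 1901 genes lower in PBS, 394 (20.7%) were also lower in DMS and 1896 had a ratio below 0 there. Of the 1614 higher in PBS, 1046 (64.8%) were also higher in DMS and 1607 had a ratio above 0. By the 2-fold rule, 0 genes were lower in PBS and higher in DMS or the reverse. The pairs share no library.

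Several gene lists followed the same split by direction, though not all. Ribosome assembly had a median of -2.0 in PBS and -0.96 in DMS, purine synthesis -1.89 in PBS and -0.99 in DMS, and peroxide defence -1.43 in PBS and -0.74 in DMS. Interferon-stimulated effectors had 2.14 in PBS and 2.0 in DMS, MHC class II 1.88 in PBS and 1.62 in DMS, and nucleic acid sensors 1.33 in PBS and 1.29 in DMS. Other higher lists had clearly smaller medians in DMS, such as cytokines and their receptors with 1.24 in PBS and 0.62 in DMS. The actin list had 0.97 in PBS and 0.60 in DMS, and the p53 targets 0.45 in PBS and 0.09 in DMS. ASS1 and LTB, from opposite ends of the PBS ranking, are examples of the split among single genes. ASS1 had 0.557 FPKM in shMyc and 79.0 FPKM in NTC in PBS, and 40.8 FPKM in shMyc and 103 FPKM in NTC in DMS. LTB had 1369 FPKM in shMyc and 170 FPKM in NTC in PBS, and 663 FPKM in shMyc and 48.8 FPKM in NTC in DMS. Taken as a set, the 15 bottom genes of the PBS ranking, MYC included, kept at most 5.38% of their NTC level in PBS. In DMS the same genes kept 31.5% (GALNT18) to 54.8% (SNHG9), with MYC at 37.9%. It was not tested whether all shMyc cells in DMS were partly depleted or some cells kept MYC. Whether PBS and DMS differ was not tested either, since each value is 1 library. The depth of depletion, its evenness over cells and the treatment cannot be told apart.

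**Figure D5:**
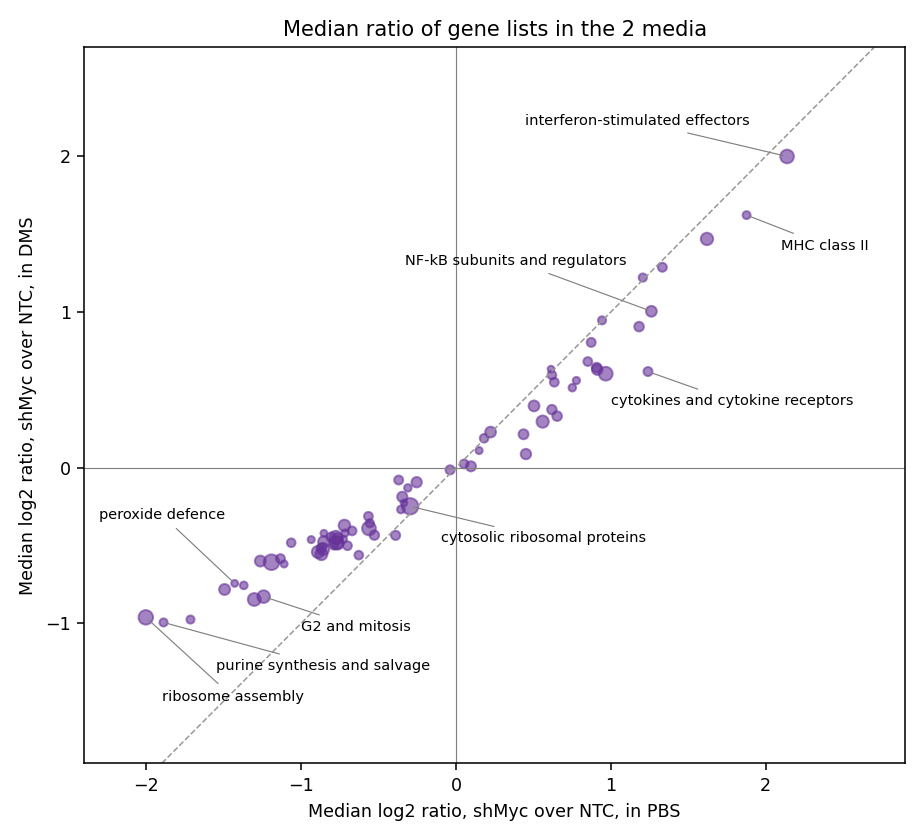
Median log2 ratio, shMyc over NTC, of gene lists with at least 10 measured members, in PBS (horizontal) and in DMS (vertical); point size grows with the number of genes and the dashed line marks equal medians. Most lists with medians below 0 lie above the line, with ribosome assembly at -2.0 in PBS and -0.96 in DMS, while interferon-stimulated effectors lie near it at 2.14 in PBS and 2.0 in DMS. Some higher lists lie well below it, with cytokines and their receptors at 1.24 in PBS and 0.62 in DMS.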

How the data were processed

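RNA-seq libraries of CA46 cells were analysed, with 1 library per group. The deposited tables hold FPKM, which the authors computed per gene and locus. The submitters' processing notes name TopHat2 2.1.0, Cuffdiff 2.2.1, fastp and the human build hg19, without saying which served the RNA-seq. The sources used here name neither the annotation nor the strand setting, nor how the libraries were scaled to each other. Without strand, reads of overlapping or antisense genes cannot be told apart. The unit was read from the values, although the titles speak of read counts. Sequencing depth is unknown. Over 159 low genes whose values shared a step, 1 fragment was worth 0.937 times as much in shMyc as in NTC in PBS, and no counting interval was computed.

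The tables have 31016 rows. Rows with no gene name (3919), 2013 small RNA genes and 25 names turned into dates were left out of the named genes, and the values of a symbol with several rows (781 symbols) were added up. Rows that join several genes (538) were kept as 1 feature. A trimmed mean of log2 ratios set the scale of each library (30% of ratios and 5% of levels trimmed), with factors of 1.05 for shMyc and 0.951 for NTC in PBS. Genes needed a mean of 1 FPKM over the 4 libraries. The steps were tested on simulated data. Python 3.11.15, numpy 2.4.6, pandas 2.3.3 and matplotlib 3.10.9 were used.

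The members and the 89 gene lists were chosen with earlier results of these data known, so no list is independent support for its direction. The text names the 15 lowest and 15 highest genes with a mean of 5 FPKM in the PBS pair, the largest absolute differences, the MYC network and the extreme members of lists. Genes named as contrasts within a list, the genes named within runs of neighbours and the paralogue pairs were chosen after their values were seen. Alternatives were other scalings, pseudocounts, filters and thresholds. Some genes are counted in their lists but not reported here by name. The ChIP-seq samples were not analysed here.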

Additional observations from a re-analysis of the deposited data

Results flagged for a closer look

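Rows with no gene name took 25.2% of the summed deposited FPKM in shMyc cells in PBS and 15.7% in NTC cells in PBS, and 22.4% in shMyc cells and 14.3% in NTC cells in DMS. These rows enter no comparison of named genes. A single unnamed row at chr14:106725316-107170240 (hg19) held 20.9% of the summed FPKM in shMyc and 10.6% in NTC in PBS. What its reads are was not tested.

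Of genes called in PBS, 12 had a ratio of the opposite sign in DMS, and 2 of these had a mean of at least 5 FPKM in the PBS pair. HIST1H4E had 13.3 FPKM in shMyc and 3.91 FPKM in NTC in PBS, a log2 ratio of 1.54, and 6.46 FPKM in shMyc and 7.31 FPKM in NTC in DMS. HIST2H2BC had 12.9 FPKM in shMyc and 27.2 FPKM in NTC in PBS, a log2 ratio of -1.03, and 14.8 FPKM in shMyc and 11.4 FPKM in NTC in DMS. HIST1H4E encodes a histone of dividing cells, RefSeq lists HIST2H2BC as a transcribed pseudogene, and the difference between PBS and DMS was not tested.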

How the results depend on the processing

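No paired analysis was possible because each group has 1 library. The 1614 higher and 1901 lower genes in PBS were 901 and 1257 with a pseudocount of 5 and 612 and 804 with a 3-fold rule, and the DMS pair gave 401 lower genes. Under the other scalings, filters and pseudocounts both counts stayed within 1.5 times. Of 723 genes followed one by one, 0 changed sign after being called. That outcome was fixed in advance. Pseudocounts and filters cannot turn a sign, and the scalings shifted ratios by far less than 2-fold. A pseudocount of 5 took 62 of the 723 genes below 2-fold, upper quartile scaling 15 and values as deposited 17, and the cause was not tested.

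Counts of gene lists moved by more than 1.5 times as follows. With upper quartile scaling, cytosolic ribosomal proteins had 3 lower, CDK inhibitors 1 lower, SR proteins and hnRNPs 6 lower, autophagy 11 higher, PRC2 and DNA methylation 2 lower, the H3K4 methylation machinery 1 lower, 2-oxoglutarate dioxygenases 8 higher and arginine methyltransferases 5 lower. With values as deposited, the pentose phosphate pathway had 4 lower, the proteasome 12 lower, SR proteins and hnRNPs 17 lower, SRP, signal peptidase and secretion 3 lower and the H3K4 methylation machinery 4 lower. With a pseudocount of 5, DNA replication had 23 lower, CDK inhibitors 1 lower, DNA repair 11 lower, chemokines and receptors 8 higher, caspases and inhibitors 5 higher, immune checkpoint and NK ligands 5 higher, germinal centre and confinement 3 higher, AP-1 and immediate early factors 6 higher, PI3K, mTOR and FOXO 4 higher, autophagy 1 higher, the H3K4 methylation machinery 1 lower, 2-oxoglutarate dioxygenases 2 higher, SWI/SNF remodelling 2 lower, hypoxia and HIF targets 3 higher, heme and iron 3 lower, myeloid markers 3 higher, T and NK cell markers 0 higher, epithelial and packaging cell markers 1 lower, complement and Fc receptors 2 higher and deaminases 3 higher. With a pseudocount of 0.1, G1/S cyclins, CDKs and E2Fs had 8 lower, autophagy 11 higher, 2-oxoglutarate dioxygenases 8 higher, sirtuins 1 lower and T and NK cell markers 2 higher. With a mean of at least 5 FPKM, fewer genes were tested: CDK inhibitors had 1 lower, immune checkpoint and NK ligands 5 higher, 2-oxoglutarate dioxygenases 2 higher, metallothioneins 1 lower, myeloid markers 3 higher and epithelial and packaging cell markers 1 lower. With joint rows left out, microRNA hosts and long noncoding RNAs had 3 higher. Median of ratios scaling moved no list.

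With 3-fold classes, the E-box share was 19.4% in lower and 5.02% in higher genes, and the share of the interferon response core 1.27% in lower and 11.2% in higher genes. Of the 66 shares by level, coding class and chromosome, 24 moved beyond their counting interval with values as deposited. The depth is unknown, so counting error is unknown too, and differences of genes with a few FPKM are the least firm.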
